A study of Mus musculus with 6 samples.

Results

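Fc receptors are the surface proteins through which myeloid cells bind antibody, and 6 of their genes were followed here in monocytes sorted from tumor and from spleen. The members were Fcgr1, Fcgr4, Fcgr3 and Fcgr2b, which encode receptors for IgG, Fcer1g, which encodes the signalling chain that the activating receptors share, and Fcer1a, which encodes the IgE-binding chain of the high-affinity IgE receptor. They were taken by gene symbol, and each of the 6 had 1 probe set that carries its symbol alone, among 22180 genes with such a probe set. Of the 6, 5 passed the filter on low values and were tested among 18458 genes, and Fcer1a did not pass.

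Activating Fc receptors pass their signal through an ITAM, a tyrosine motif carried by the partner chain FcRγ, which Src-family kinases and Syk read out as phagocytosis, cytokine release and antigen uptake. Fcgr2b is the inhibitory IgG receptor. It carries an ITIM in its own tail and recruits the phosphatase SHIP-1, so the balance between it and the activating receptors sets the threshold at which an immune complex triggers a myeloid cell. Fcgr1 is the high-affinity receptor, known to be inducible by interferon, and Fcgr3 and Fcgr4 bind complexed IgG with lower affinity.

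The data are 6 arrays of the type Mouse Gene 2.0 ST, on which a gene is read by a set of short probes spread over its transcript. The 3 arrays labelled Spleen and the 3 labelled Tumor hold RNA of flow-sorted CD11b+CD11c-Ly6Chi cells, taken 10 days after mice received Th9 cells, a helper T cell subset. Every sample came from a mouse given Th9 cells, so no group without the transfer stands beside them. The strain field of the labels holds only the word Th9, and the sources used here give neither the kind of tumor nor the mouse strain, the age or any pooling of animals. They also do not say whether a group's 3 samples are different mice, so each p-value rests on the spread of these samples alone, which may be technical. Levels below are log2(intensity + 1), differences are tumor minus spleen on that scale, and folds are taken from it, which understates changes of dim genes.

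The arrays numbered 3 stood apart in both groups, with median log2 intensities of 4.73 and 4.76 against 4.50 to 4.51 on the other 4. Values are therefore also given from a fit that blocks on the replicate number, and from arrays 1 and 2 alone. The genes of the sort markers Itgam (CD11b) and Ly6c2, and the monocyte gene Ccr2, lay above the 25th percentile of intensity on all 6 arrays. So did Itgax, the gene of the CD11c protein that the sort selected against. Mean levels in spleen and tumor were 10.04 and 9.19 for Itgam and 6.81 and 8.29 for Ly6c2. They were 6.86 and 5.93 for Ccr2 and 11.16 and 10.31 for Itgax, the brightest of these genes. Limma, with Benjamini-Hochberg adjustment over all genes tested, called 1953 genes at an adjusted p under 0.05, that is 10.6% of those tested, 5.73% higher and 4.85% lower in tumor. The total dropped to 1148 without spleen 1, to 1030 without spleen 2 and to 1012 without tumor 1.

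The 4 IgG receptor genes did not change alike. Fcgr1 was 11.8-fold higher in tumor and Fcgr4 was 1.74-fold higher, and both passed the test. Fcgr2b and Fcgr3 lay lower on every tumor array than on every spleen array but missed the threshold, at differences of -0.67 and -0.45. Fcer1g was level between the tissues, and Fcer1a was near the floor of the arrays in both. Of the 5 members tested, 2 were called higher and 0 lower by limma, beside the shares of all genes just given, with 2 lower at an unadjusted p under 0.05, where 12.3% of all genes were lower and 9.29% higher. Exact permutation tests of 3 against 3 arrays cannot go below 0.1, and gave 0.1 (two-sided) for each of the 4 IgG receptor genes and 0.5 for Fcer1g. In 4 of the 5 the tumor and spleen arrays did not overlap, which held for 25.4% of all genes tested. In such bulk samples, fewer cells of a type and less RNA per cell cannot be told apart.

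**Figure D1:**
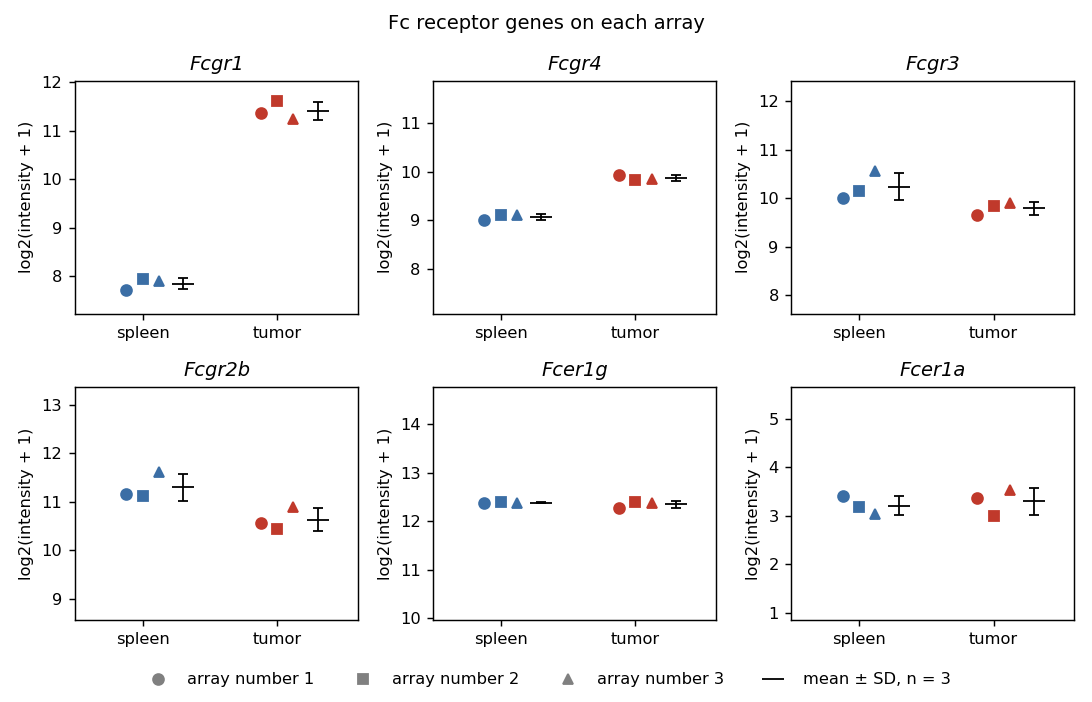
Level of each of the 6 Fc receptor genes, as log2(intensity + 1), on the 3 spleen and 3 tumor arrays, with the mean and SD of each group beside the points; each panel spans the same height. Fcgr1 lies between 11.25 and 11.61 on the tumor arrays and between 7.71 and 7.94 on the spleen arrays. Fcer1g differs by -0.04, with SDs of 0.01 in spleen and 0.06 in tumor, and its groups overlap.

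Fcgr1, which encodes CD64, the high-affinity IgG receptor, had intensities of 209, 244 and 238 on spleen arrays 1 to 3 and of 2637, 3118 and 2432 on tumor arrays 1 to 3. On the log2 scale these are 7.71, 7.94 and 7.90 in spleen and 11.37, 11.61 and 11.25 in tumor. The groups were separated by a gap of 3.31 between the highest spleen and the lowest tumor array. The difference was 3.56 ± 0.16 (SE, n = 3 arrays per group), from 7.85 ± 0.12 to 11.41 ± 0.18 (SD), with a limma adjusted p of 4.6e-06. Its 95% interval runs from 9.17-fold to 15.1-fold. Of all genes tested, 58 had a larger positive difference. The 3 same-numbered pairs gave 3.65, 3.67 and 3.35, and the call held with each array left out in turn.

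Fcgr4 encodes the activating receptor through which mouse monocytes and macrophages bind IgG2a and IgG2b. Its intensities were 509.9, 548 and 551 on the spleen arrays and 977, 911 and 915 on the tumor arrays, so the 3 tumor values lay together above the 3 spleen values. The difference was 0.80 ± 0.13, from 9.07 ± 0.06 to 9.87 ± 0.06 (limma adjusted p = 0.00669), with a 95% interval from 1.41-fold to 2.16-fold. Leaving out any of the 6 arrays kept the call, with an adjusted p of at most 0.0449. The arrays numbered 1 and 2 gave 0.83 and the pair numbered 3 gave 0.73.

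Fcgr2b encodes the inhibitory receptor. On spleen arrays 1 to 3 its intensities were 2291, 2213 and 3138, and on tumor arrays 1 to 3 they were 1518, 1374 and 1889. Within each tissue array 3 was the highest, and the highest tumor array lay 0.23 below the lowest spleen array on the log2 scale. The difference was -0.67 ± 0.20, from 11.30 ± 0.28 to 10.63 ± 0.23 (limma adjusted p = 0.069), with a 95% interval from -1.12 to -0.22. With the replicate block, the same difference had an SE of 0.09 and an adjusted p of 0.00139. The share of all genes called lower in that fit was 17.3%. The arrays numbered 1 and 2 alone gave -0.64 (limma adjusted p = 0.0238), the pair numbered 3 gave -0.73, and leaving out tumor 3 gave -0.80 (limma adjusted p = 0.0422).

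Fcgr3 encodes the low-affinity activating receptor known as CD16, which NK cells and neutrophils carry as well. Its intensities were 1034, 1138 and 1508 in spleen and 800.5, 914 and 956 in tumor, with array 3 again the highest of each group and a gap of 0.11 on the log2 scale between the groups. The difference was -0.45 ± 0.18, from 10.24 ± 0.28 to 9.80 ± 0.13 (limma adjusted p = 0.19). With the replicate block the adjusted p was 0.0164, and among the arrays numbered 1 and 2 the difference was -0.34 (adjusted p = 0.131). Like Fcgr2b, it was called after scaling the arrays to 1 distribution or to 1 median (limma adjusted p = 0.0152 and 0.0453). Fcgr2b, Fcgr3 and Fcgr4 have similar extracellular domains, and whether their probe sets read each other's transcripts was not tested.

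Fcer1g encodes FcRγ, without which the activating IgG receptors of the mouse neither reach the surface in full nor signal. Its intensities were 5344, 5403 and 5314 in spleen and 4953, 5373 and 5316 in tumor, and the groups overlapped. The difference was -0.04 ± 0.13 (limma adjusted p = 0.954). The 95% interval of the difference runs from -0.34 to 0.27, and a change within those bounds is not excluded by the fit. Fcer1a, whose product mast cells and basophils use to bind IgE, had intensities of 9.69, 8.04 and 7.18 in spleen and 9.38, 6.94 and 10.6 in tumor. All 6 values were below the 25th percentile of their array, which lay between 9.98 and 11.2, and no level or difference can be read from this probe set.

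**Figure D2:**
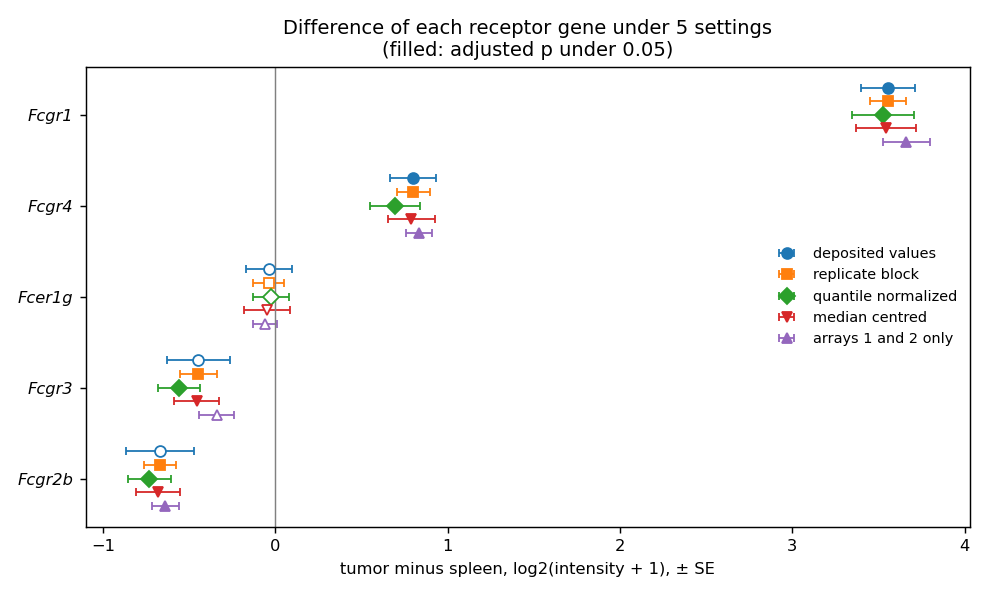
Difference between tumor and spleen in log2(intensity + 1), with its SE, for the 5 tested Fc receptor genes under 5 settings; filled symbols have a limma adjusted p under 0.05. Fcgr1 and Fcgr4 are filled throughout and Fcer1g never, while Fcgr2b and Fcgr3 are open on the deposited values, at -0.67 and -0.45, and filled with the replicate block and after both rescalings.

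The upstream sequences of the 4 IgG receptor genes are shown because the genes moved apart, and because interferon-activated STAT and IRF factors and the myeloid factor PU.1 bind known short motifs. All 6 members matched an entry of RefSeq's promoter set (build GRCm38.p6), with 7 entries in all since Fcgr3 has 2 starts, of which the first listed is shown. Each sequence holds the 200 bases before the annotated start, 5′ to 3′ on the gene's strand: Fcgr1 at chr3:96293970-96294169 (minus strand), Fcgr4 at chr1:171018726-171018925 (plus strand), Fcgr3 at chr1:171059404-171059603 (minus strand) and Fcgr2b at chr1:170976072-170976271 (minus strand). Capitals mark matches to the STAT dimer motif (GAS), the interferon response core (ISRE) and the PU.1 core.
Fcgr1: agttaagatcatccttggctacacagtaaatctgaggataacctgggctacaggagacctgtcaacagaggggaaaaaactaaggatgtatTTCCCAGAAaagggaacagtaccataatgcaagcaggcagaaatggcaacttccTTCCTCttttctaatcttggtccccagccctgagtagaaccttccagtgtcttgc
Fcgr4: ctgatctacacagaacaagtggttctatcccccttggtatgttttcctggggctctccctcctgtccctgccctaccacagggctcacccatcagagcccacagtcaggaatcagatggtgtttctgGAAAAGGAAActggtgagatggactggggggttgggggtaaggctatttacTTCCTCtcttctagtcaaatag
Fcgr3: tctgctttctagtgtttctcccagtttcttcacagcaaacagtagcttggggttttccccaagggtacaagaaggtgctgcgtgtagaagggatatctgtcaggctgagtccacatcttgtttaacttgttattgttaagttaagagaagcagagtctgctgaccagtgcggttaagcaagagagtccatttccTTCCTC
Fcgr2b: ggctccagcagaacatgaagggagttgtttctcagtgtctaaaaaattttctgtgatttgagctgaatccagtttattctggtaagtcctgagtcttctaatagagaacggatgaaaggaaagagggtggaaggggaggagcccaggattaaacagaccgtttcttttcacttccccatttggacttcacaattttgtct

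Motifs were searched on both strands in the 250 bases before each start, and the shares are those of all 32851 promoters of that length in the set. The GAS motif TTCNNNGAA matched Fcgr1 alone among the members, as TTCCCAGAA from 109 to 101 bases before the start, and 7.02% of promoters held a match. The ISRE core, GAAA and a second GAAA with any 2 bases between them, matched Fcgr4 alone, as GAAAAGGAAA from 73 to 64 bases before the start, against 2.98% of promoters. The PU.1 core GAGGAA, read as TTCCTC on the strand shown, matched Fcgr1 (55 to 50 bases before the start), Fcgr4 (22 to 17) and Fcgr3 (6 to 1). Fcer1a held it farther up, at 216 to 211, Fcgr2b and Fcer1g did not, and 23.3% of promoters did. No match in a member overlapped a match of another motif.

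The STAT6-type spacing, TTC and GAA with any 4 bases between them, matched no member (5.85% of promoters), and the GATA motif AGATAA matched Fcer1a alone (9.99% of promoters). The kappaB core, GGG and CC with any 5 bases between them, matched all members but Fcgr1, and 45.8% of promoters. A match is a run of letters and not a measured binding site, and a window without one says nothing of the factor. The motifs were chosen with the differences of these genes known.

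The study design allows the activating receptors to be set against the inhibitory one within each array. For this the log2 ratio of each gene to Fcgr2b was taken per array and its change tested by limma in the same way for all 18457 other genes. The level of such a ratio depends on the probes, so only its change is read. Because Fcgr2b itself stood at -0.67, the median change of all genes relative to it was 0.62, and 69.2% of genes were called higher. A call alone therefore says little here, and the sizes are read against 0.62.

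Fcgr1 relative to Fcgr2b was -3.45, -3.18 and -3.71 on spleen arrays 1 to 3 and 0.80, 1.18 and 0.36 on tumor arrays 1 to 3. This ratio rose by 4.23 ± 0.23, or 18.7-fold (limma adjusted p = 7.0e-06). The ratio of Fcgr4 to Fcgr2b was -2.17, -2.01 and -2.51 in spleen and -0.64, -0.59 and -1.04 in tumor. It rose by 1.47 ± 0.18, or 2.77-fold (limma adjusted p = 5.4e-04). In neither ratio did the groups overlap, but this also held for the ratio of Fcer1g to Fcgr2b, which changed by only 0.63. The share of all genes for which it holds was not counted, so nothing is read from it. Leaving out any of the 6 arrays ended neither call, beside 69.2% of all genes called higher relative to Fcgr2b.

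Fcgr3 and Fcgr2b were not separated from each other by this test. Their ratio was -1.15, -0.96 and -1.06 in spleen and -0.92, -0.59 and -0.98 in tumor, where the groups overlap. The change was 0.22 ± 0.15 (limma adjusted p = 0.194), with a 95% interval from -0.12 to 0.57, which lies below the median of 0.62 for all genes. Fcer1g relative to Fcgr2b rose by 0.63 ± 0.19 (limma adjusted p = 0.0192), close to the median of all genes. That call was lost without tumor 1 (0.64, limma adjusted p = 0.0536) and without tumor 2 (0.51, limma adjusted p = 0.0677). The exact permutation p (two-sided) was 0.1, the lowest possible, for the ratios of Fcgr1, Fcgr4 and Fcer1g and 0.2 for that of Fcgr3. All these ratios share Fcgr2b, so their p-values are not independent of each other.

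**Figure D3:**
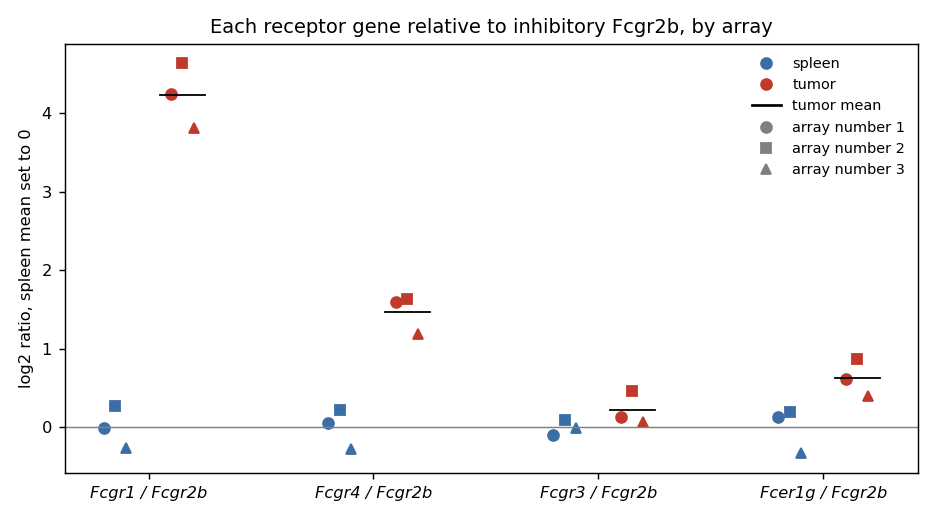
Log2 ratio of 4 Fc receptor genes to Fcgr2b on each array, drawn from the spleen mean of that ratio, with spleen arrays in blue, tumor arrays in red and the tumor mean as a black bar. The Fcgr1 and Fcgr4 ratios lie 4.23 and 1.47 above spleen on average, and the Fcgr3 ratio overlaps between the tissues.

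The same reading against the shared chain Fcer1g was added after the values were seen. Relative to Fcer1g, Fcgr1 rose by 3.60 ± 0.16 (limma adjusted p = 2.6e-06) and Fcgr4 by 0.84 ± 0.15 (adjusted p = 0.00666), where 6.12% of genes were called higher. Fcgr3 stood at -0.41 ± 0.18 (adjusted p = 0.241, and 0.0224 with the replicate block) and Fcgr2b at -0.63 ± 0.20 (adjusted p = 0.0894).

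Apart from Fcgr1, on chromosome 3, the members lie on chromosome 1, and in the order of the RefSeq table (GRCm38.p6) Fcgr2b, Fcgr4 and Fcgr3 follow each other with no other protein-coding gene between them. Fcgr4, the middle gene, was the only one called of 15 tested genes from Fcrlb to Ppox, a stretch that reaches 4 entries beyond Fcgr2b and Fcer1g on each side, against 10.6% of all genes. The 11 tested genes of this stretch that are no members had differences from -0.40 to 0.43. They include the Fc receptor-like genes Fcrlb (0.43 ± 0.30) and Fcrla (-0.26 ± 0.15), and Sdhc (0.21 ± 0.21), a subunit of respiratory complex II. With the replicate block 5 of the 15 were called, namely Fcgr4, Fcgr2b, Fcgr3, Fcrlb and Tomm40l, near the 29.0% of all genes called in that fit.

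**Figure D4:**
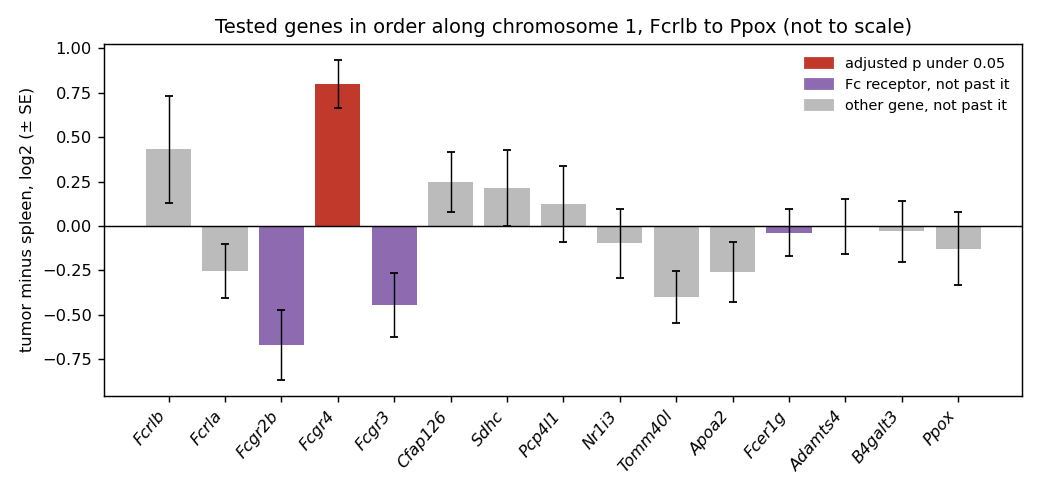
Difference between tumor and spleen in log2(intensity + 1), with its SE, for the 15 tested genes from Fcrlb to Ppox in their order along chromosome 1, not to scale. Fcgr4 stands at 0.80 between Fcgr2b at -0.67 and Fcgr3 at -0.45, and the 11 genes that are no members lie between -0.40 and 0.43.

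The genes whose profile came closest to each member were found by the root mean square distance between log2 values over the 6 arrays, after subtracting each gene's own mean. For Fcgr1 these were Mndal, an Ifi200-family gene (distance 0.11, difference 3.43), Phf11b (0.12, 3.49) and Gpr84, a receptor of medium-chain fatty acids (0.15, 3.53). For Fcgr4 they were Fas, the death receptor (0.042, difference 0.87), Aebp2 (0.044, 0.79) and Plagl2 (0.044, 0.84). Fcgr2b lay nearest to Nkain1 (0.028), Urb2 (0.028) and Trim37 (0.031), and Fcgr3 to Med25 (0.025), U2af1 (0.034) and Tmem104 (0.038). The flat profile of Fcer1g was nearest to Arpc2, a subunit of the actin-nucleating complex (0.015), Camkv (0.021) and Thsd7a (0.023). Among the IgG receptors themselves, Fcgr2b and Fcgr3 were the closest pair, at 0.17, and Fcgr1 and Fcgr2b the farthest, at 2.13. Fcgr4 lay 0.65 from Fcgr3, 0.76 from Fcgr2b and 1.38 from Fcgr1.

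Around the members, 8 lists of related genes were read by their counts, beside 5.73% higher and 4.85% lower and a median of -0.05 over all genes tested. The fit with the replicate block called 11.7% of all genes higher and 17.3% lower, and its counts for these lists and for the marker lists are to be read beside those shares. Of 11 tested genes of other Fc receptors, 1 was higher and 1 lower, with a median of -0.03 (2 higher and 3 lower with the replicate block). Trim21, the cytosolic receptor for antibody on incoming virus, rose by 3.13 ± 0.21, from 7.24 ± 0.31 to 10.37 ± 0.28 (limma adjusted p = 4.3e-05). Fcgrt, the neonatal Fc receptor that salvages IgG from lysosomes, fell by 0.82 ± 0.18, from 9.67 ± 0.19 to 8.85 ± 0.22 (adjusted p = 0.0203). Fcgrt missed the threshold without spleen 2 (adjusted p = 0.0771), without tumor 1 (adjusted p = 0.0955) and among the arrays numbered 1 and 2 (adjusted p = 0.0616).

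Among signalling chains with an ITAM and their adaptors 0 of 5 tested were called by limma, with a median of -0.35, 1 lower at an unadjusted p under 0.05, and 2 called lower with the replicate block. Tyrobp, which encodes the adaptor DAP12, stood at -0.47 ± 0.15 (limma adjusted p = 0.101, and 0.0145 with the block), and Cd79b at -0.51 ± 0.26 (adjusted p = 0.322). Of 22 kinases and effectors of activating receptors 2 were higher and 4 lower, with a median of -0.06 (6 and 6 with the block). Syk, the kinase that docks on the ITAM, stood at -0.21 and was not called (adjusted p = 0.599); it was named after its value was seen. Malt1 (1.21 ± 0.22) and Prkce (0.93 ± 0.17) rose, and the adaptor Card9 (-1.43 ± 0.17), the exchange factor Vav2 (-1.33 ± 0.14) and Lat2 (-0.87 ± 0.20) fell. Malt1 lost its call without spleen 2 (adjusted p = 0.0501), Prkce without spleen 1 or 2 (at most 0.0525) and Lat2 without spleen 1 or 2 or tumor 1 or 2 (at most 0.106).

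On the inhibitory side, 0 of 11 phosphatases, docking proteins and ligases were higher and 2 lower, with a median of -0.01 that was 0.06 after quantile normalization. At an unadjusted p under 0.05 they were 0 and 3, and with the block 1 and 3. Inpp5d, which encodes SHIP-1, the phosphatase that Fcgr2b recruits, fell by 1.05 ± 0.18, from 9.32 ± 0.18 to 8.27 ± 0.25 (limma adjusted p = 0.00715), with each array left out too. The docking protein gene Dok3 fell by 0.85 ± 0.18 (adjusted p = 0.0182), but not without spleen 2 or tumor 1 (at most 0.0852) or among the arrays numbered 1 and 2 (0.058). Of 12 other receptors with an ITIM 1 was higher and 2 lower, with a median of -0.24 (1 and 5 with the block). Cd300lf rose by 0.63 ± 0.16 and Cd300a and Clec4a2 fell by 1.01 ± 0.23 and 0.64 ± 0.15.  Cd300lf lost its call whichever array was removed (at most 0.132), Cd300a without spleen 1 or 3 or tumor 1 or 2 (up to 0.106) and Clec4a2 without any array but spleen 3 (up to 0.156) and after both rescalings (0.116 and 0.0527).

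Of 14 genes of the phagocytic cytoskeleton 1 was higher and 3 lower, with a median of -0.08 (1 and 5 with the block). Rac2 fell by 0.97 ± 0.13 (limma adjusted p = 0.00234), Coro1a by 0.97 ± 0.16 and Dock2 by 0.63 ± 0.13, and Myo10, a motor of phagocytic cups, rose by 0.87 ± 0.16. Dock2 missed the threshold without spleen 1 or 2 or tumor 1 or 2 (adjusted p up to 0.113), and Myo10 without spleen 1 or 2 or tumor 1 (up to 0.0666). Among 10 transcription factors that act on Fc receptor genes, 2 were higher and 1 lower, with a median of 0.09 (3 and 1 with the block). Irf1, an interferon-induced factor, rose by 1.80 ± 0.15 (adjusted p = 1.4e-04), Stat3 by 0.65 ± 0.16 (adjusted p = 0.036, and up to 0.153 without any array but spleen 3), and Cebpa fell by 2.14 ± 0.15 (adjusted p = 4.9e-05). Spi1, the gene of PU.1, stood at -0.21 (adjusted p = 0.61) and was named after its value was seen.

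Of 10 pentraxins and complement receptors 1 was higher and 3 lower, with a median of -0.23 (1 and 5 with the block). The pentraxin Ptx3, a soluble pattern receptor, rose by 2.02 ± 0.22 (limma adjusted p = 6.8e-04). C5ar2 fell by 1.01 ± 0.24, and the complement receptor integrins Itgam and Itgax by 0.85 ± 0.17 and 0.85 ± 0.16. C5ar2 and Itgam missed the threshold without spleen 2, tumor 1 or tumor 2 (adjusted p up to 0.136 and 0.0802), and Itgax without tumor 1 (0.0594).

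**Figure D5:**
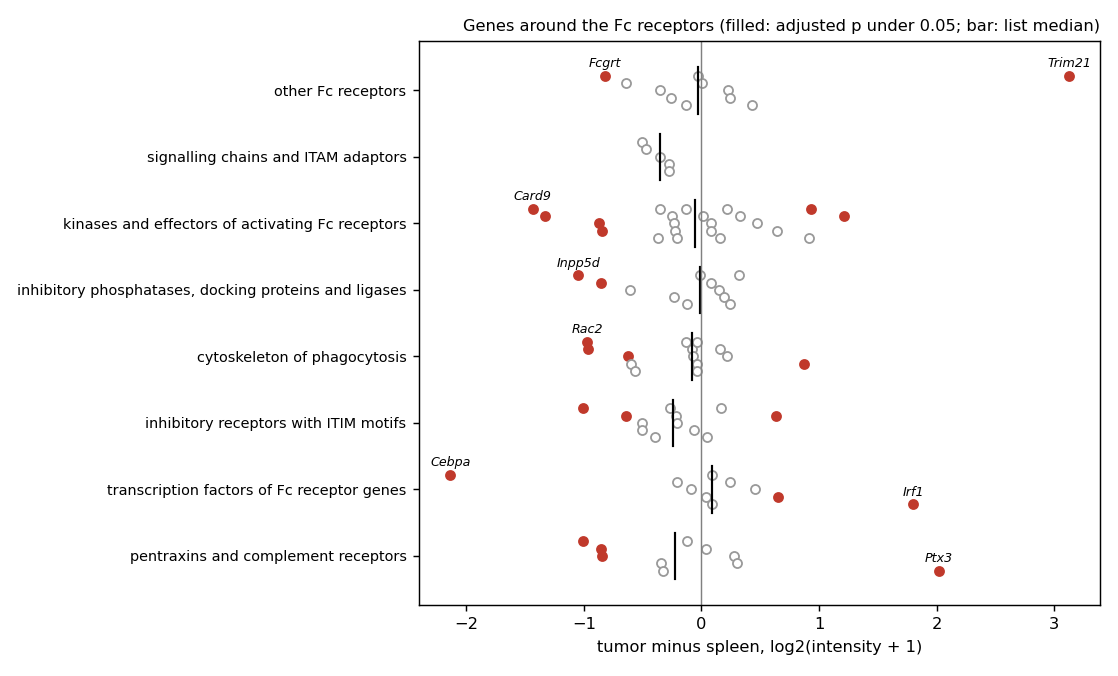
Difference between tumor and spleen in log2(intensity + 1) of every tested gene of the 8 related lists, with filled symbols for a limma adjusted p under 0.05 and a black bar at each list's median. Trim21 stands out at 3.13 among the other Fc receptors, and Inpp5d at -1.05 among the inhibitory phosphatases and docking proteins.

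Other cell types carry these receptors too, so their markers were read on the same arrays, beside 5.73% of all genes called higher and 4.85% lower. Markers of B cells, which carry Fcgr2b, were called in 0 of 7 cases by limma, with 0 at an unadjusted p under 0.05 in either direction. Their summed intensity was 140 to 229 in spleen and 131 to 204 in tumor, with Blk at 0.35 ± 0.16 and Cd79b at -0.51 ± 0.26 as given above. NK cell markers, whose cells carry Fcgr3, summed to 238 to 336 in spleen and 611 to 919 in tumor, with 2 of 7 called higher. Those were Klrk1 (1.73 ± 0.23), which encodes NKG2D, and Txk (1.22 ± 0.24, not called without tumor 1 or 2, adjusted p up to 0.0686). The sum follows Klrk1, the brightest gene of the list, at 7.44 in spleen and 9.18 in tumor. Of the defining NK receptor genes, Ncr1 had a spleen mean of 4.07 and a difference of -0.07 ± 0.19, and Klrb1c did not pass the filter. The cytotoxic gene Prf1 stood at -0.01 ± 0.25.

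Neutrophil markers, whose cells carry Fcgr3 and Fcgr4, had 0 of 11 higher and 1 lower (0 and 2 at an unadjusted p under 0.05, 0 and 3 with the block), and summed to 3329 to 4005 in spleen and 2480 to 2806 in tumor. The sum largely follows Mmp8, the brightest gene of the list, at 10.93 in spleen and 10.25 in tumor. Mmp8 fell by 0.68 ± 0.16, but only with tumor 3 or no array left out (limma adjusted p up to 0.142). Csf3r stood at -0.60 ± 0.18 (limma adjusted p = 0.0807, but 0.0193 with the block), and S100a8 and Ngp did not pass the test. With the block S100a8 did pass (limma adjusted p = 0.0207). The mast cell and basophil list summed to 1300 to 2026 in spleen and 1688 to 2281 in tumor, and of its 10 tested genes 1 was called higher and 0 lower (0 lower also at an unadjusted p under 0.05, 1 and 1 with the block). The higher gene was Hdc, which encodes the histamine-forming enzyme and rose by 3.38 ± 0.17, from 5.64 to 9.02 (limma adjusted p = 8.1e-06). Cpa3 stood at 9.91 and 9.86 and Kit at -0.55 ± 0.31 (limma adjusted p = 0.397, but 0.00433 with the block and 0.034 among the arrays numbered 1 and 2), while Ms4a2, the partner of Fcer1a, stood at 4.72 and 4.44. The part of any of these cells in the receptor values was not tested.

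Macrophages, whose marker proteins include CD64, had 1 marker of 8 higher and 2 lower (1 and 3 at an unadjusted p under 0.05, 1 and 4 with the block). The list summed to 7569 to 10007 in spleen and 6590 to 9125 in tumor, where the groups overlap. Siglec1 rose by 0.93 ± 0.20 and C1qc and C1qb fell by 0.74 ± 0.15 and 0.64 ± 0.14, each losing the call without spleen 1, without spleen 2 and without a tumor array (limma adjusted p up to 0.132). Mrc1 stood at -0.16 ± 0.29. Adgre1 stood at -0.57 ± 0.20 (limma adjusted p = 0.121, but 0.00258 with the block and 0.0162 among the arrays numbered 1 and 2). Mertk stood at 0.01 ± 0.23, and both were named after their values were seen. Dendritic cell markers had 4 of 9 higher and 1 lower (4 and 2 with the block), and summed to 6591 to 6973 in spleen and 7235 to 7699 in tumor. Zbtb46 (0.89 ± 0.17), Dpp4 (0.87 ± 0.20) and Ccr7 (0.54 ± 0.14) rose and Itgax fell. Each of these 3 rises was lost without spleen 1 or 2 and without some of the others (adjusted p up to 0.158). Kmo, the other marker called higher, rose by 0.82 ± 0.14, from 6.55 to 7.37 (limma adjusted p = 0.00722). It was named after its value was seen.

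Classical monocyte markers had 3 of 9 higher and 3 lower, and summed to 11624 to 13268 in spleen and 11301 to 12083 in tumor. Vcan rose by 2.44 ± 0.16 and Cd14 by 2.01 ± 0.17, Chil3 stood at -0.12 ± 0.14, and Csf1r fell by 0.57 ± 0.15 (limma adjusted p up to 0.173 without any array but tumor 3). The sort marker gene Ly6c2 rose by 1.48 ± 0.31 (limma adjusted p = 0.0186). Ccr2 fell by 0.93 ± 0.15 (limma adjusted p = 0.00516) and Itgam by 0.85 ± 0.17, as given above. Nonclassical monocytes, which are known for high Fcgr4, had 0 of 9 markers higher and 2 lower (0 and 4 at an unadjusted p under 0.05, 1 and 5 with the block), and summed to 3421 to 4422 in spleen and 2650 to 3283 in tumor. Spn (-1.18 ± 0.20) and Eno3 (-0.95 ± 0.16, adjusted p = 0.0594 among the arrays numbered 1 and 2) fell, and Cd36 (-0.55 ± 0.19) and Itgal (-0.32 ± 0.19) did not pass. Both did pass after quantile normalization and with the block (limma adjusted p = 0.00619 and 0.0389 with the block), and Cd36 also after median centring. Of plasmacytoid dendritic cell markers 1 of 5 was called, Tcf4 (1.92 ± 0.23), with Pacsin1 at -0.19 ± 0.21. The summed level was 285 to 414 in spleen and 723 to 1174 in tumor. This sum follows Tcf4, the brightest gene of the list, at 7.63 in spleen and 9.55 in tumor. Siglech (0.10 ± 0.32), Ccr9 (0.07 ± 0.15) and Cox6a2 (0.05 ± 0.33) were dim, with spleen means of 4.52, 3.98 and 4.52, and were not called. T cell markers had 1 of 8 lower, Cd3g (-1.36 ± 0.18), with Cd4 at -0.36 ± 0.19, and summed to 298 to 337 in spleen and 196 to 249 in tumor. In spleen Cd3g was the brightest gene of the list, at 6.70, against 5.34 in tumor, so this sum largely follows it. Cd5 had a mean level of 5.52 in both tissues. The other CD3 chain genes Cd3e and Cd3d differed by 0.06 ± 0.40 and 0.0009 ± 0.18. Of 12 tumor and stromal markers 0 were called by limma (1 higher and 1 lower both at an unadjusted p under 0.05 and with the block), with Col1a1 at -0.47 ± 0.19, Epcam at 0.45 ± 0.24 and Dcn at 0.38 ± 0.16. That list summed to 584 to 629.8 in spleen and 554 to 613 in tumor.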

How the data were processed

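The authors deposited a table of linear intensity values, made with RMA per the submitters' processing notes (no version given), from RNA with an integrity number above 8.5, per the labels' protocols. The 3 arrays per group limit the precision. The build used for the array annotation was not given in these sources; promoter sequences and gene order are RefSeq's. Only probe sets with 1 gene symbol were used (23521 of 41345; 1814 had several symbols and 16010 none), the brightest on average where a gene had more than 1. Genes above the 25th percentile of their array on at least 3 arrays were tested, 18458 of 22180, as log2(intensity + 1).

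Limma 3.58.1 (R 4.3.3; lmFit, eBayes; group as the only term except in the block fit; two-sided) gave the p-values not named as exact permutation tests, adjusted by Benjamini-Hochberg over all tested genes, for single genes and for within-array ratios to Fcgr2b or Fcer1g. It was first tested on simulated data. Deviations from group means correlated at 0.36, 0.44 and 0.71 between arrays of the same number in both tissues, so a fit with the number as a block is given beside the first. The sample titles do not say what the numbers mark, and the crossed pairs of arrays 1 and 2 correlated too (0.47 and 0.35).

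The members and lists were chosen with earlier results of these data known. Named genes are all members, up to 3 called genes per direction of each related list (or the 2 of smallest p), the 2 largest differences and 2 highest levels of each marker list, and each member's 3 nearest profiles, leaving out predicted genes and small RNAs. Defining markers of a cell type and neighbours on the chromosome were added after their values were seen. Alternatives were a pseudocount of 8, no filter, a 50th percentile filter, quantile normalization, median centring, the mean of probe sets, a trended and robust prior, the block, arrays 1 and 2 only, the pair numbered 3, an adjusted p under 0.01, and each array left out.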

Additional observations from a re-analysis of the deposited data

How the results depend on the processing

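Fcgr1 and Fcgr4, and their ratios to Fcgr2b, kept direction and call under each alternative that had a test, and Fcer1g stayed uncalled. The pair numbered 3 alone, which has no test, gave 3.35 for Fcgr1 and 0.73 for Fcgr4. Fcgr2b and Fcgr3 kept their direction but not their side of the threshold. Fcgr2b passed the threshold after quantile normalization (-0.73, limma adjusted p = 0.00538), after median centring (-0.68, adjusted p = 0.00705), with the replicate block (-0.67), and among the arrays numbered 1 and 2 (-0.64). With 1 array left out it ranged from -0.80 to -0.51. Fcgr3 passed after quantile normalization (-0.56), after median centring (-0.46) and with the replicate block (-0.45). The ratio of Fcer1g to Fcgr2b ranged from 0.47 to 0.75 with 1 array left out. Fcer1a, under the filter, stood at 0.50 in the pair numbered 3, and its ratio to Fcgr2b at 1.23 there and at 0.76 without a filter (adjusted p = 0.0158), which rests on a probe set not above the 25th percentile.

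The number of genes called was 1953. It was 3508 after quantile normalization, 3328 after median centring, 5348 with the replicate block, 2942 among the arrays numbered 1 and 2 and 961 at an adjusted p under 0.01, and ranged from 1012 to 1926 with 1 array left out. The causes were not tested. Probe signal near the floor limits Fcer1a and the dim marker genes.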

Other observations

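The deposited values bear on the arrays numbered 3. Between any 2 of the 4 arrays numbered 1 or 2, from 2449 to 3534 of 41345 probe sets had exactly the same intensity. Between an array numbered 3 and any of those 4 the count was 0, and between the 2 arrays numbered 3 it was 12. The cause was not tested.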
